A study of Mus musculus with 28 samples.

Results

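The salivary acinar secretory genes followed here are 10 genes of the saliva-making acinar cell: Smgc, Mucl2, Muc19, Dcpp1, Dcpp2, Lpo, Pip and Scgb2b27, which encode secreted products, Aqp5, which encodes a water channel, and Bhlha15, which encodes a transcription factor. They were chosen by name, their Ensembl identifiers were matched to symbols, and all 10 were among the 47643 gene rows of the count tables. Levels are CPM, a gene's reads scaled to the library's reads in genes. The series profiled freshly sorted cells of H2B-GFP mice, whose histone-bound GFP is diluted by cell division, by 3′ mRNA sequencing of polyadenylated RNA. The salivary gland was sampled at 9 months, as a GFP+ and a GFP− fraction of 3 libraries each. The thyroid gland was sampled at 3, 6 and 9 months, with 4, 4 and 3 libraries in each GFP+ fraction and as many in each GFP− fraction, which made 28 libraries in 8 groups. The labels name the gland, the GFP status and the age, and say neither which salivary gland was taken, nor what drives the transgene, nor how long the label was chased, nor whether replicates were separate or pooled animals. The p-values therefore measure only the spread between these samples.

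Acinar cells build secretory proteins in a dense endoplasmic reticulum, store them in granules and release them with fluid when the gland is stimulated. Serous acini make watery saliva rich in enzymes and small proteins, mucous acini make mucins, and demilune cells cap mucous acini with serous product. Aqp5 lets water cross the apical membrane, and Bhlha15 (MIST1) keeps serous secretory cells in their mature state.

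Depth limited what could be seen. Libraries held 507 to 209091 reads in genes, and 6 of 28 held fewer than 10000. Salivary GFP+ libraries 1, 2 and 3 held 993, 11795 and 79225 reads, and salivary GFP− libraries held 76584, 36095 and 188657 reads. A gene without a read in a single library could still have been present at up to 3 reads, which is 3021, 254 and 37.9 CPM in the salivary GFP+ libraries and 39.2, 83.1 and 15.9 CPM in the salivary GFP− libraries. These limits, and all intervals on shares and ratios of reads below, cover counting error only. The salivary label was checked against other lists: thyroid follicle genes summed to 0 CPM in every salivary GFP+ library and to 31.8 to 111 CPM in the salivary GFP− libraries, beside 0 to 9831 CPM (median 2459) in the thyroid libraries.

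The start regions of 5 of these genes are shown because their levels formed the contrasting groups described below: Smgc, Dcpp1 and Dcpp2 on one side, and Mucl2 and Pip on the other. Each runs from 250 bases before to 50 bases after the RefSeq start on build GRCm38.p6, 5′ to 3′ on the gene's own strand. The windows are chr15:91838078-91838377 on the plus strand for Smgc, chr17:23880626-23880925 on the plus strand for Dcpp1, chr17:23898472-23898771 on the plus strand for Dcpp2, chr15:103899263-103899562 on the minus strand for Mucl2 and chr6:41847299-41847598 on the plus strand for Pip. Capitals mark the E-box letters CANNTG on either strand, the motif class bound by basic helix-loop-helix factors such as the Bhlha15 protein, and the TATA-box letters TATAA on the gene's strand.
Smgc: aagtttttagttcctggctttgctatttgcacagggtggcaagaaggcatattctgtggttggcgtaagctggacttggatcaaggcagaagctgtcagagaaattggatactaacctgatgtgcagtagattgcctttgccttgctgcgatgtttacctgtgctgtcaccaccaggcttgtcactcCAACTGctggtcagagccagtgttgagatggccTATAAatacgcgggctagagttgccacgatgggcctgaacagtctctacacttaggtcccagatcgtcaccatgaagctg
Dcpp1: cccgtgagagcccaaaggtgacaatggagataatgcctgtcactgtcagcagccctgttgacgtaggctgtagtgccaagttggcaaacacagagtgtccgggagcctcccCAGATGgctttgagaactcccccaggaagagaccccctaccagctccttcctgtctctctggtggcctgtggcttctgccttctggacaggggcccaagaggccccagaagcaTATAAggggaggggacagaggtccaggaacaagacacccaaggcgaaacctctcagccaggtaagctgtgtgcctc
Dcpp2: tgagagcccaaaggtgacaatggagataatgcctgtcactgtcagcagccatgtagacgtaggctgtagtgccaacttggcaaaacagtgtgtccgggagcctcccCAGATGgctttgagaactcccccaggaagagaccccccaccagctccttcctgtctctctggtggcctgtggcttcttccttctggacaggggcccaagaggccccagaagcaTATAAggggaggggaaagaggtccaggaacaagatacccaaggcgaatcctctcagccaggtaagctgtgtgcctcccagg
Mucl2: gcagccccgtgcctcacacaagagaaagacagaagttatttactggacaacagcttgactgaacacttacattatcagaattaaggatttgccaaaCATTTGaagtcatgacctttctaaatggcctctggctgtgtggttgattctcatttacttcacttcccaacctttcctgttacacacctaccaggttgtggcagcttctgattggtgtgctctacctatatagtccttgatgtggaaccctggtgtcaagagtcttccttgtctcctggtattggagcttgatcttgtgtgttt
Pip: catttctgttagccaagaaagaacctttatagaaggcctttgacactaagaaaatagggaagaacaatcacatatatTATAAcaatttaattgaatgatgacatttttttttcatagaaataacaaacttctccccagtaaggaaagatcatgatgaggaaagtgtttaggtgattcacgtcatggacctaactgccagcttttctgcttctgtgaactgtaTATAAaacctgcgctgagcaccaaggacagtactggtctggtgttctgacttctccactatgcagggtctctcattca
Of the 10 genes, 9 had a start region in the RefSeq table, all but Muc19. TATAA was found in 5 of these 9, against 17.5% of 32851 start regions of the same length. It lay 30 bases before the start in Smgc, 26 in Dcpp1, 31 in Dcpp2 and 28 in Pip, with another copy in Pip 173 bases before the start. In Scgb2b27 it lay 28 bases after the start, and Mucl2, Aqp5, Bhlha15 and Lpo had none. Only the exact letters TATAA were looked for. The Mucl2 region holds the letters tatata before its start, so having no TATAA does not mean that it has no TATA box. CANNTG was found in 7 of 9, against 72.3% of all start regions. The forms CATATG and CAGCTG, looked for on both strands and both a subset of CANNTG, were found in 0 of 9, against 3.91% and 16.3% of all. The Dcpp1 and Dcpp2 start regions were 93.8% identical, and the Smgc and Mucl2 regions 48.0%.

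In the salivary gland 6 of these genes, Mucl2, Smgc, Scgb2b27, Dcpp2, Dcpp1 and Pip, were abundant and the other 4 were sparse. The reads of all 10 made up 0.201%, 1.82% and 5.65% of the reads in genes in GFP+ libraries 1, 2 and 3 (95% Wilson intervals 0.0553 to 0.731%, 1.60 to 2.08% and 5.49 to 5.81%). In the GFP− libraries they made up 11.8%, 19.4% and 9.90% (11.5 to 12%, 19.0 to 19.8% and 9.77 to 10.04%). The GFP+ share was thus below the GFP− share in every library, with no overlap. Ribosomal RNA rows took 53.4 to 63.8% of the same reads in GFP+ and 38.9 to 60.4% in GFP− libraries, and 22.3 to 64.8% against 13.3 to 23.1% of all reads lay outside genes. Depth and these shares differed between the fractions with some overlap, and their part in the difference was not tested. The library ends were read at the 3′ side, so 1 transcript gives about the same signal whatever its length, and genes could be ranked within a fraction. With ribosomal RNA set aside, Mucl2 ranked 12 and 5 of the genes detected in GFP+ libraries 2 and 3, and 1 in each GFP− library. Smgc ranked 9 and 8 in these GFP+ libraries, and 25, 11 and 2 in GFP− libraries 1, 2 and 3. Pip ranked 88 and 19 in the GFP+ libraries, and 11, 14 and 19 in the GFP− libraries. Scgb2b27, Dcpp2 and Dcpp1 ranked between 10 and 17 in the GFP+ libraries, and between 7 and 26 in the GFP− libraries. The order of the 6 thus differed between libraries. In pooled reads, to which library 3 of each fraction gave the most, Aqp5 ranked 2012 of 3880 detected genes in GFP+ and 399 of 8574 in GFP− cells. Muc19, Lpo and Bhlha15 had no read in GFP+ cells and ranked 177, 874 and 5835 in GFP− cells.

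**Figure D1:**
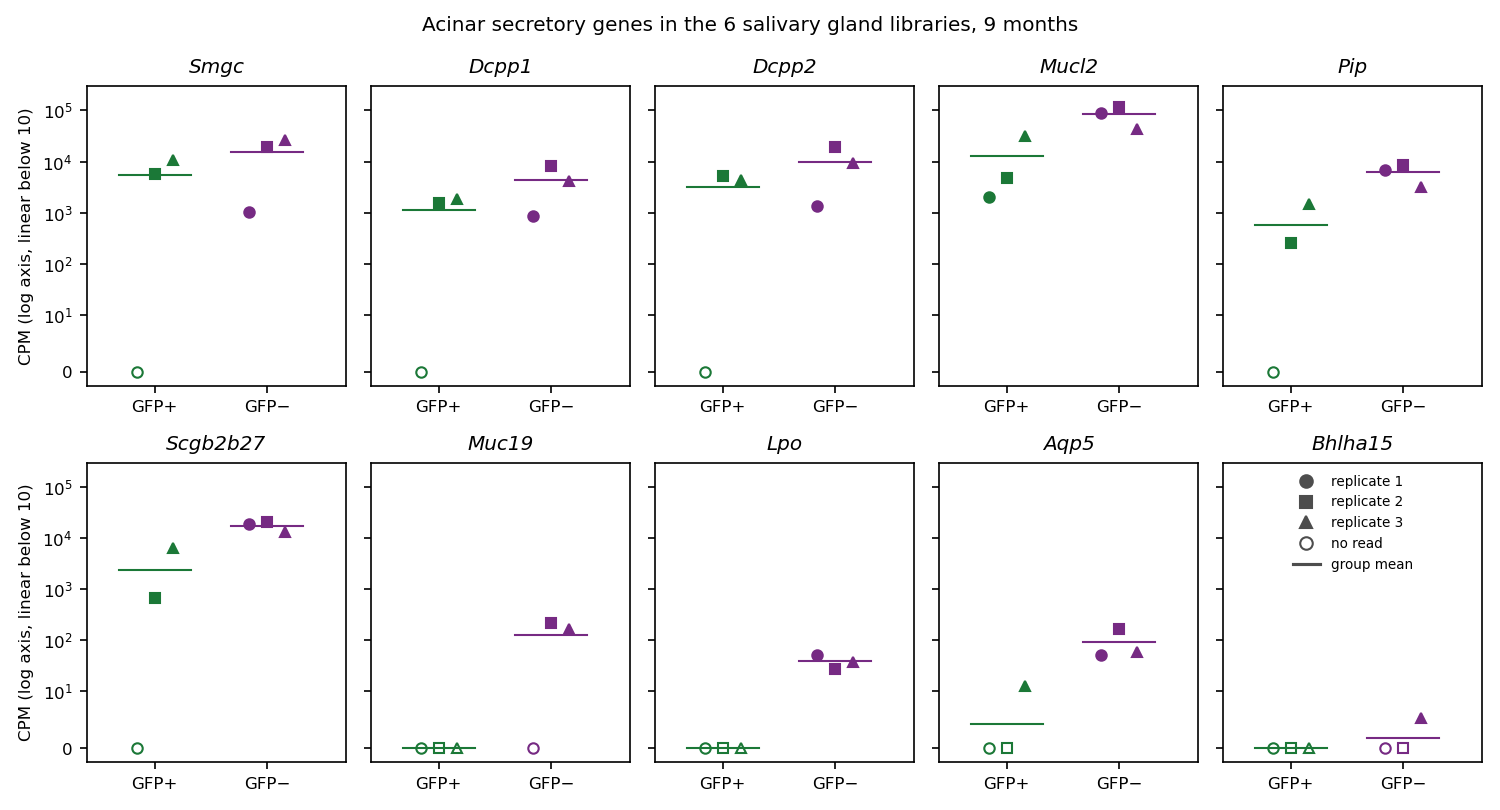
CPM of each of the 10 genes in the 3 GFP+ and the 3 GFP− salivary gland libraries at 9 months. Each point is a library, shapes are replicates, hollow points have no read, lines are group means, and the axis is logarithmic above 10 and linear below. Mucl2, Pip and Scgb2b27 had all GFP+ points below all GFP− points, and the Smgc, Dcpp1 and Dcpp2 points of the fractions overlapped.

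Among the secreted products, Mucl2, a mucin-like protein, had 2014, 4748 and 31594 CPM in GFP+ libraries 1, 2 and 3, against 89196, 117579 and 42850.3 CPM in GFP− libraries. All GFP+ libraries lay below all GFP− libraries, and the closest pair was library 3 of each fraction. Pip, the prolactin-induced protein of saliva, had 0, 254 and 1502 CPM in GFP+ libraries and 6764, 8616 and 3244 CPM in GFP− libraries. Scgb2b27, a secretoglobin of the androgen-binding protein family, had 0, 678 and 6399.5 CPM in GFP+ libraries and 18398, 20502 and 12928 CPM in GFP− libraries. Both genes showed the Mucl2 order, with no overlap and with library 3 of each fraction closest together. Over all genes tested, 20.1% had GFP+ libraries wholly below GFP− libraries, against these 3 of the 6 genes that could be tested. In bulk samples such as these, fewer cells of a type and less RNA per cell cannot be told apart.

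Smgc, a mucin-type product named after the submandibular gland, had 0, 5765 and 10641 CPM in GFP+ libraries, against 1032, 19227 and 26445 CPM in GFP− libraries. Dcpp1 and Dcpp2, named for demilune and parotid cells, overlapped between fractions in the same way. Dcpp1 had 0, 1526 and 1881 CPM in GFP+ libraries, set against 862, 8173 and 4087 CPM in GFP− libraries. Dcpp2 reached 0, 5256 and 4430.4 CPM in GFP+ libraries, set against 1345, 19366 and 9228 CPM in GFP− libraries. For these 3 genes, GFP− library 1 was the low one of its fraction and fell below GFP+ libraries 2 and 3. It was not low for the other products: its Mucl2, Pip and Scgb2b27 levels exceeded those of GFP− library 3.

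None of the 6 genes tested passed the threshold between the salivary fractions (edgeR quasi-likelihood test, Benjamini-Hochberg adjusted p under 0.05), nor did any of the 974 genes, so the background was 0%. Without adjustment 96 of 974 genes had p under 0.05, Pip among them. DESeq2 called 2 of the 974 genes and none of these 6. The log2 fold change of GFP+ over GFP− cells was −3.00 for Pip (SE 1.44, edgeR adjusted p = 0.496), −2.46 for Scgb2b27 (SE 1.41, adjusted p = 0.591) and −2.40 for Mucl2 (SE 1.36, adjusted p = 0.586). It was −1.69 for Dcpp1 (SE 1.33, adjusted p = 0.678), −1.51 for Dcpp2 (SE 1.37, adjusted p = 0.688) and −1.17 for Smgc (SE 1.35, adjusted p = 0.763). All 6 were negative, with a median of −2.04 beside −0.89 over all 974 genes. The intervals were wide: −5.07 to 0.27 for Mucl2 and −3.82 to 1.48 for Smgc. The calls depended on GFP+ library 3. Without it, edgeR called Mucl2 (log2 fold change −6.31, adjusted p = 0.00303), Pip (−6.73, adjusted p = 0.00303) and Scgb2b27 (−6.86, adjusted p = 0.0027) lower in GFP+ cells, among 18 of 1313 genes. That fit left GFP+ libraries 1 and 2, of 993 and 11795 reads, for the GFP+ fraction.

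The 4 remaining genes were sparse and did not pass the filter on low counts in the fit of the 12 libraries at 9 months. Muc19, a gel-forming mucin made from the same stretch of chromosome 15 as Smgc, had 0 reads in all GFP+ libraries and 0, 8 and 31 reads in GFP− libraries. Its pooled level was thus at least 3.97-fold lower in GFP+ cells, from 3 reads over the group. That bound rests on GFP+ library 3, without which the GFP+ reads allow up to 1.81 times the GFP− level. GFP− library 1, which was also low in Smgc, had none of it. The annotated exons of Smgc shared 95 of 3410 bases with Muc19. Lpo, the antimicrobial lactoperoxidase, had 0 reads in GFP+ libraries and 4, 1 and 7 in GFP− libraries. Aqp5 had 0, 0 and 1 reads in GFP+ libraries and 4, 6 and 11 in GFP− libraries, a ratio of pooled levels of 0.156 (95% interval 0.00377 to 0.97) that also rests on GFP+ library 3, without which GFP+ cells had no read and allow up to 3.37 times the GFP− level. Bhlha15 had 1 read in all 6 salivary libraries, in GFP− library 3. The pooled salivary reads allow Bhlha15 up to 14.2 CPM (95% Poisson bound), beside 55218 CPM for Mucl2.

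The 6 abundant genes did not keep the same proportions in every library. Set against 100 Mucl2 reads, Smgc had 121 and 33.7 reads in GFP+ libraries 2 and 3, and 1.16, 16.4 and 61.7 in GFP− libraries 1, 2 and 3. GFP+ library 1 is left out because it held 2 reads of these genes, both of Mucl2. Dcpp2 had 111 and 14.0 reads per 100 Mucl2 reads in the GFP+ libraries and 1.51, 16.5 and 21.5 in the GFP− libraries. Dcpp1 had 32.1 and 5.95 in the GFP+ libraries and 0.966, 6.95 and 9.54 in the GFP− libraries. The highest ratio was 105 times the lowest for Smgc, 73.4 times for Dcpp2 and 33.3 times for Dcpp1. Pip and Scgb2b27 stayed nearer to Mucl2. Pip had 5.36 and 4.75 reads in the GFP+ libraries and 7.58, 7.33 and 7.57 in the GFP− libraries, a 1.59-fold range. Scgb2b27 had 14.3 and 20.3 in the GFP+ libraries and 20.6, 17.4 and 30.2 in the GFP− libraries, a 2.11-fold range. In GFP+ library 2 these values rest on 3 Pip and 8 Scgb2b27 reads against 56 Mucl2 reads. Counting error there is wide, so the narrow ranges of Pip and Scgb2b27 are uncertain.

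Among Smgc, Dcpp1 and Dcpp2, the ranges over the 5 libraries were 5.41-fold for Dcpp1 per Smgc read, 3.74-fold for Dcpp2 per Smgc read and 2.21-fold for Dcpp1 per Dcpp2 read. Pip per Scgb2b27 read ranged 1.79-fold. Smgc, Dcpp1 and Dcpp2 together made up 68.8% and 30.0% of the reads of the 6 genes in GFP+ libraries 2 and 3, and 2.75%, 24.2% and 40.3% in the GFP− libraries. The fractions overlapped in this share. The grouping was seen in the values and has no test. A pair of other acinar products is set beside them, chosen after their values were seen, so it is no test of the grouping. The rest of that list is not compared here. Bpifa2, a secreted BPI-fold protein of saliva, had 15 and 71 reads in GFP+ libraries 2 and 3 and 29, 140 and 672 reads in GFP− libraries, low in GFP− library 1 as Smgc was. Scgb1b27, a secretoglobin of the alpha type that pairs with the Scgb2b type, had 8 and 440 reads in the GFP+ libraries and 1515, 838 and 1840 in the GFP− libraries, as Scgb2b27 did.

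**Figure D2:**
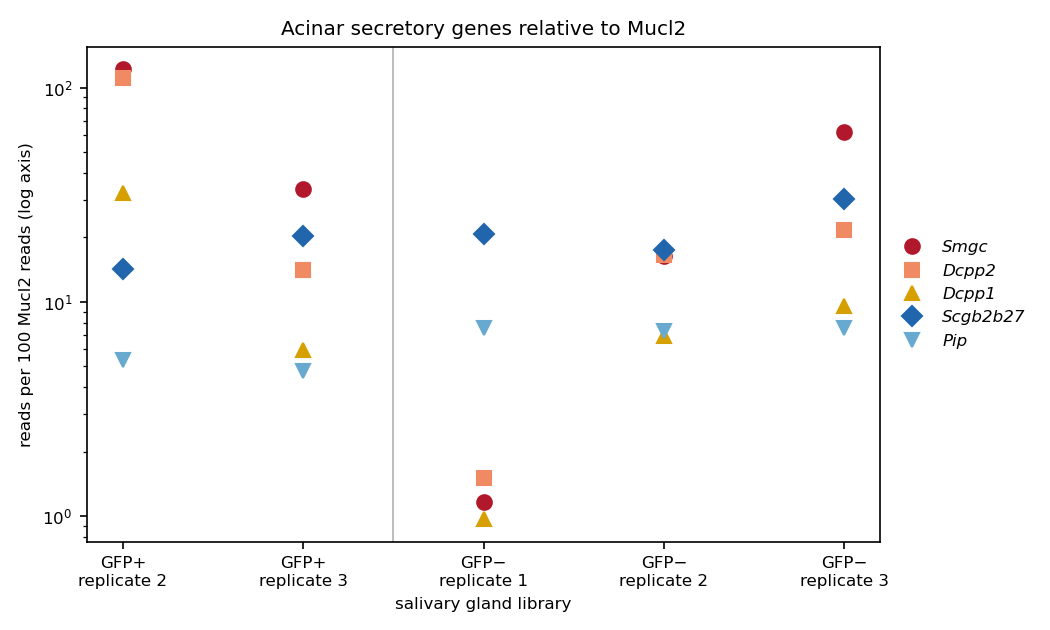
Reads of 5 genes per 100 Mucl2 reads (log axis) in the 5 salivary gland libraries with at least 10000 reads, GFP+ left of the line and GFP− right of it. Smgc, Dcpp2 and Dcpp1 spanned a 33.3- to 105-fold range, and Pip and Scgb2b27 stayed within 1.59- and 2.11-fold. In GFP+ library 2 the points of Pip and Scgb2b27 rest on 3 and 8 reads.

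The other lists of the salivary gland gave 0 calls between fractions too. Of 19 other acinar products in the files 6 were tested, and their summed level was 9985 ± 9372 CPM in GFP+ libraries, set against 55811 ± 26279 CPM in GFP− libraries (SD, n = 3 each). Of 11 granular duct genes, which mark the convoluted ducts of the rodent submandibular gland, 6 were tested and 5 had an unadjusted p under 0.05. They summed to 2014 to 6189 CPM in GFP+ libraries, set against 7743 to 26190 CPM in GFP− libraries, with Smr3a and Ren1 at 0 in both. Of 12 ductal and simple epithelial genes 6 were tested, and these genes summed to 884 to 2014 CPM in GFP+ libraries, set against 522 to 1914 CPM in GFP− libraries, with Krt19 and Elf3 at 0 in GFP+ cells. Granular duct sums thus lay lower in every GFP+ than in any GFP− library, but within GFP− cells library 3 had the highest duct sum and the lowest sum of the 10 genes. Simple epithelial levels overlapped between fractions. The part of these cells in the acinar difference was not tested.

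Set against thyroid of the same age and fraction, all 6 genes tested were higher in the salivary gland (edgeR, adjusted p at most 6.12e-05 in GFP+ and 7.26e-06 in GFP− cells). The background was 5.03% of 974 genes higher in GFP+ and 4.31% in GFP− cells. These 6 passed the filter on low counts through their salivary reads and the other 4 did not enter, so the count does not speak for all 10. Fitted with only the 6 GFP+ libraries compared, Mucl2 alone passed the filter and was called. Muc19 and Aqp5 entered in some alternatives: single libraries left out, no filter, and no libraries under 10000 reads. In GFP− cells edgeR called Muc19 higher in 12 of 12 settings that tested it (adjusted p 5.4e-08 to 0.0012) and Aqp5 in 10 of 12 (adjusted p 0.00819 to 0.602). These settings share most of their libraries and are not separate tests. Muc19 had 0 reads in thyroid GFP− cells, so it entered through its salivary reads. Fold changes are given from pooled reads, because several thyroid groups had no read. In GFP+ cells Mucl2 was 4472-fold higher (95% interval 1237 to 36946), with 1, 0 and 1 reads in the thyroid libraries. Smgc was at least 1060.5-fold higher in GFP+ cells, Scgb2b27 at least 599.5-fold, Dcpp2 at least 481-fold, Dcpp1 at least 194-fold and Pip at least 142-fold. In GFP− cells Mucl2 was 5695-fold higher (1948 to 27616), Smgc 5138-fold (922 to 2.03e+05) and Pip 1285-fold (230.0 to 50786). Scgb2b27 was at least 1364-fold higher in GFP− cells, Dcpp2 at least 756-fold and Dcpp1 at least 336-fold. Without salivary GFP+ library 3, Mucl2 was 729-fold higher in GFP+ cells, the bound for Scgb2b27 was 8.95 times smaller and Pip gave no bound. Without thyroid GFP− library 2, Smgc was at least 867-fold and Pip at least 217-fold higher in GFP− cells. The fitted log2 fold changes of the 6 had medians of 12.40 in GFP+ and 13.45 in GFP− cells, beside −1.15 and −0.17 over all genes. With genes lacking thyroid reads at their bounds, the median log2 ratio of the 6 was 9.07 in GFP+ and 10.37 in GFP− cells.

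Among GFP− cells all 6 genes were higher in every salivary library than in any thyroid library, which 3.29% of genes were. Among GFP+ cells only Mucl2 was, against 1.44% of genes, since salivary GFP+ library 1 had no read of the other 5. The 6 had passed the filter through their salivary reads, so these counts beside the shares of all genes are no test. Without salivary GFP+ library 3, Pip lost its call in GFP+ cells (adjusted p = 0.0542). Whether the GFP+ to GFP− difference itself differed between glands could be fitted with a fold for Mucl2 alone (log2 difference −1.84, SE 2.81, edgeR adjusted p = 0.902), and 0 of 974 genes were called by edgeR and 1 by DESeq2. Without adjustment 86 genes had p under 0.05, none of these 6 among them.

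Aqp5 was seen in both glands, with 22 reads in salivary and 86 in thyroid libraries, or 55.9 CPM pooled (95% interval 35.1 to 84.7) against 46.0 CPM (36.8 to 56.8). The ratio over all libraries was 1.22 (0.725 to 1.96). At 9 months the fractions went opposite ways: the ratio of salivary to thyroid was 0.129 (0.00316 to 0.785) in GFP+ cells, from 1 against 27 reads, and 2.34 (0.996 to 6.11) in GFP− cells, from 21 against 8 reads. Without thyroid GFP+ library 1 the GFP+ ratio was 0.464 (0.0101 to 3.83), and without thyroid GFP− library 2 the GFP− ratio was 4.74 (1.16 to 41.7). The mean of both differences, −21.5 CPM, therefore nets them against each other, and an exact 2-sided permutation test at 9 months within fractions gave p = 0.91 (400 regroupings, adjusted p = 0.91 over 2 tests). At 9 months the pooled levels of Muc19 and Lpo in salivary GFP− cells were at least 11.6-fold and 3.57-fold higher than in thyroid GFP− cells, which had no read of either. Without thyroid GFP− library 2 these bounds were 5.87-fold and 1.81-fold. Of the acinar fluid and secretion machinery, 2 of 3 genes tested were higher in the salivary gland in both fractions: Slc12a2, the sodium-potassium-chloride carrier that loads acinar cells with chloride (log2 fold change 5.53 in GFP+ and 4.30 in GFP−), and Atp1b1, a sodium pump subunit (4.23 and 2.74), with edgeR adjusted p at most 0.0254. Neither of the 2 tested genes of the secretory endoplasmic reticulum passed. Of 19 other acinar products 6 passed the filter, through their salivary reads as the members did, and all 6 were called higher in both fractions, against the 5.03% and 4.31% of all genes. Dcpp3, Scgb1b27, Bpifa2 and Prol1 were among them, and Dcpp3 and Bpifa2 had no read in thyroid at 9 months.

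**Figure D3:**
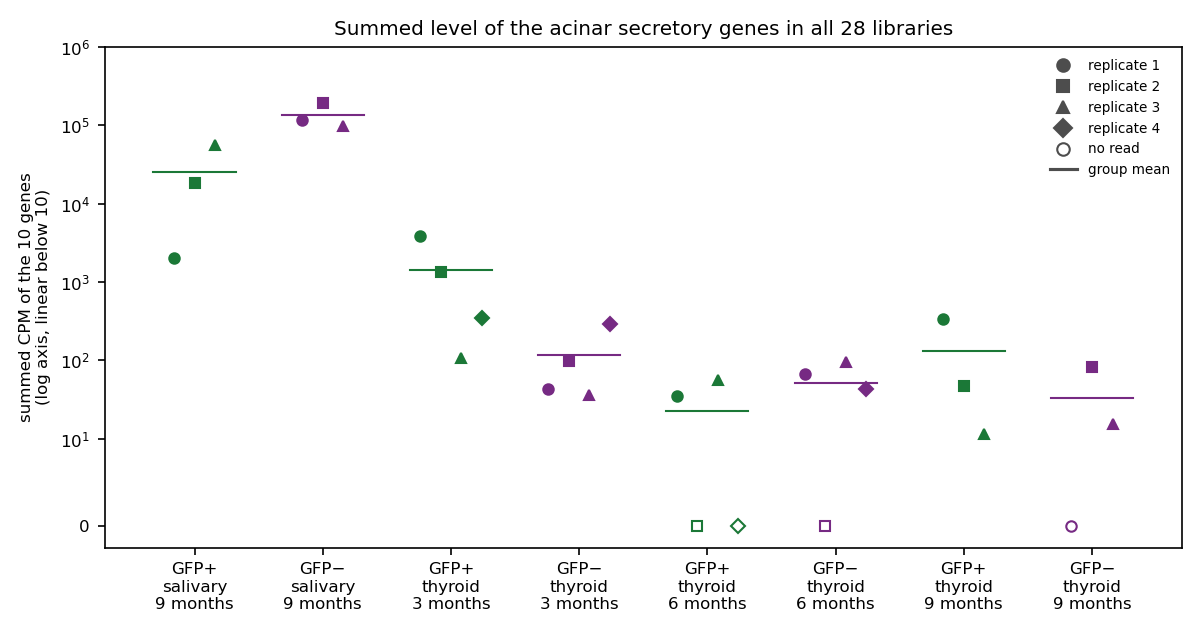
Summed CPM of the 10 genes in all 28 libraries by gland, age and fraction. Points are libraries, shapes are replicates, hollow points have no read, lines are group means, and the axis is logarithmic above 10 and linear below. Salivary libraries reached 2014 to 193877 CPM and thyroid libraries 0 to 3841 CPM.

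In the thyroid the 10 genes had 205 reads in 22 libraries, beside 39388 reads in 6 salivary libraries. Their sum at 3 months was 3841, 1357, 107 and 343 CPM in GFP+ libraries 1 to 4, set against 42.9, 97.8, 35.8 and 294.8 CPM in GFP− libraries. The 3841 and 1357 CPM stood for 6 and 8 reads in libraries of 1562 and 5896 reads. At 6 months the sum was 35.3, 0, 56.3 and 0 CPM for GFP+ cells, set against 67.04, 0, 95.7 and 43.3 CPM for GFP− cells. At 9 months it was 338, 47.0 and 11.6 CPM for GFP+ cells, set against 0, 82.95 and 15.4 CPM for GFP− cells. The fractions overlapped at every age. Muc19 and Bhlha15 had no read in any thyroid library, and Pip had 1, Smgc 2, Lpo 4 and Scgb2b27 5 reads in all 22.

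Dcpp1 and Dcpp2 appeared in the thyroid almost only in replicate 4 at 3 months, in both fractions. Dcpp1 had 29 reads (166 CPM) in the GFP+ and 10 reads (128 CPM) in the GFP− library of that number. Dcpp2 had 22 reads (126 CPM) in the GFP+ and 11 reads (141 CPM) in the GFP− library. Elsewhere Dcpp2 had 1 read in GFP+ replicate 1 and Dcpp1 had 2 reads in GFP− replicate 1, both at 3 months, and neither had a read at 6 or 9 months. Replicate 4 had no read of Smgc in either fraction. Dcpp3, a close relative whose transcript is 93.4% identical to that of Dcpp1 and 91.8% to that of Dcpp2, had 151 and 58 reads there. It made up 74.8% (95% Wilson interval 68.3 to 80.2%) of the 3 genes' reads in the GFP+ and 73.4% (62.8 to 81.9%) in the GFP− library, and 39.0 to 55.8% in the 5 salivary libraries with any. Transcripts of Dcpp1 and Dcpp2 are 90.0% identical, and their last 200 bases 76.8%, while those of Dcpp1 and Dcpp3 are 97.0% identical over their last 200 bases, so the split of reads between Dcpp1 and Dcpp3 is uncertain.

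Some other secretory genes of the same libraries are given here, chosen after their values were seen. Mucl2, the most abundant of the salivary members, had reads in the GFP+ library of replicate 4 and none in the GFP− library. Of 19 other acinar products, 11 had no read in thyroid GFP+ cells at 3 months and 14 had none in GFP− cells, over all replicates. Replicate 4 at 3 months had 0 reads of Bpifa2, Scgb1b27 and Klk1 in either fraction. It had 44 and 17 reads of Lyz2 and 62 and 6 of Ltf in the GFP+ and GFP− libraries, where the 6 salivary libraries together had 1 read of each. Scgb3a1 and Bpifa1, products of airway epithelium, had 179 and 50 reads in the GFP+ library and 2 and 1 in the GFP− library. Of the 11 airway genes listed, 4 had no read in thyroid GFP+ cells at 3 months, over all replicates: Scgb1a1, Scgb3a2, Bpifb1 and Chil4. In GFP− cells 3 had none: Foxj1, Chil4 and Gp2. The 11 airway genes summed to 1800 CPM in the GFP+ library, set against 141 CPM in the GFP− library, beside a median of 320 CPM over the 22 thyroid libraries. The part of airway epithelium in the Dcpp reads was not tested.

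**Figure D4:**
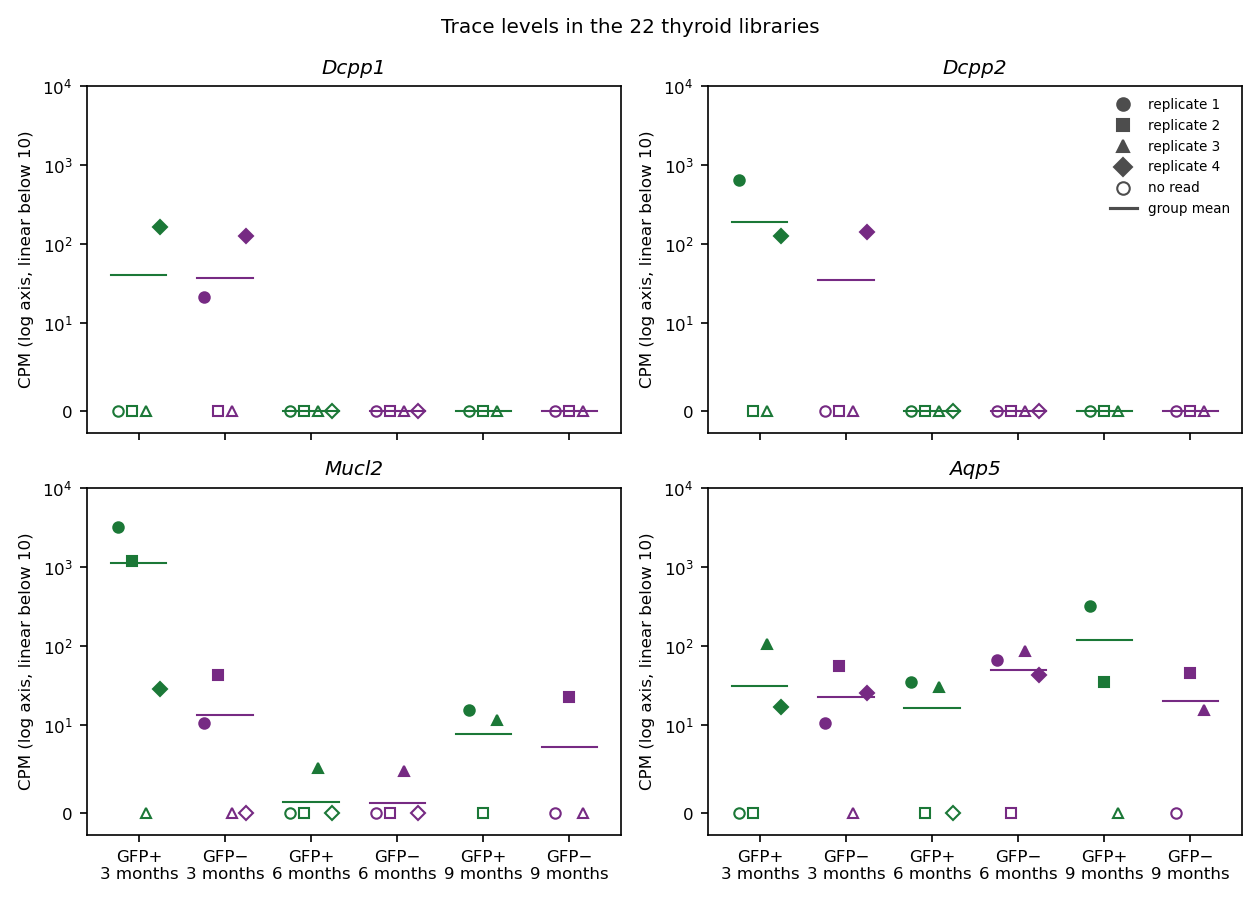
CPM of Dcpp1, Dcpp2, Mucl2 and Aqp5 in the 22 thyroid libraries by fraction and age. Points are libraries, shapes are replicates, hollow points have no read, lines are group means, and the axis is logarithmic above 10 and linear below. Dcpp1 and Dcpp2 had reads at 3 months only, mostly in replicate 4, and Aqp5 had reads at every age.

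Only Dcpp2 of the 10 genes passed the filter on low counts in the fit of the 22 thyroid libraries. Within GFP+ cells it changed over the 3 ages (edgeR, adjusted p = 0.0105, among 1.58% of 1900 genes called). The pooled level was at least 13.6-fold lower at 6 months and at least 12.3-fold lower at 9 months than at 3 months. The call rests on a single library, since 22 of the 23 reads were in replicate 4, and without replicate 4 of both fractions no member passed the filter. The call was also lost with all 28 libraries in 1 fit (adjusted p = 0.0569), with replicate numbers as a block (adjusted p = 0.999), without libraries under 10000 reads (adjusted p = 0.103) and with DESeq2 (adjusted p = 0.999). Within GFP− cells the adjusted p was 0.104, among 1.53% of genes called. Between fractions at 3 months the log2 fold change of GFP+ over GFP− was 0.83 (SE 1.11, adjusted p = 0.752), among 9.74% called.

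Mucl2 was seen at trace level in 10 of 22 thyroid libraries, with 32 reads. At 3 months it had 5, 7, 0 and 5 reads in GFP+ libraries and 1, 7, 0 and 0 in GFP− libraries. GFP+ libraries 1 and 2 stood highest, at 3201 and 1187 CPM, and are the shallow ones named above. The pooled ratio of GFP+ to GFP− cells was 3.83 (95% interval 1.57 to 10.3). It moved with single libraries, to 2.32 (0.826 to 6.78) without GFP+ library 2, 20.9 (7.84 to 58.8) without GFP+ library 4 and 16.8 (2.64 to 704) without GFP− library 2, which held 7 of the 8 GFP− reads. At 6 months it had 1 read in each fraction, in replicate 3, and at 9 months 1, 0 and 1 reads in GFP+ and 0, 3 and 0 in GFP− libraries. Pooled over GFP+ cells, Mucl2 at 6 months was 0.0331 of its 3-month level (0.000792 to 0.211) and at 9 months 0.0736 (0.00825 to 0.310). In GFP− cells these ratios were 0.126 (0.00285 to 0.942) and 0.506 (0.0865 to 2.11). With 1 library left out and a ratio still given, the GFP+ ratios ran from 0.00608 to 0.0546 at 6 months and from 0.0135 to 0.157 at 9 months. The GFP− ratios ran from 0.0991 to 0.186 and from 0.397 to 0.982. Without replicate 3 at 6 months no read was left at that age. The limit of 3 reads then allows up to 6.62 times the GFP+ and 7.18 times the GFP− ratio. The gene did not pass the filter in the fit of all 22 libraries. It passed in 8 other settings, such as without single libraries at 9 months, and was called over ages in GFP+ cells in all 8 (edgeR adjusted p 0.00136 to 0.00865) and between fractions at 3 months in 6 of 8 (0.0414 to 0.275). It did not pass without the libraries under 10000 reads, which held 12 of the 17 GFP+ reads at 3 months. Dcpp1 likewise passed in 9 other settings and was called over ages in GFP+ cells in all 9 (0.00175 to 0.0397). All 29 of its GFP+ reads at 3 months were in replicate 4, which each of these 9 settings kept. Its calls thus rest on a single library. For both genes the settings share most of their libraries and are not separate tests.

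Aqp5 was the most widely seen of the 10 in the thyroid, in 14 of 22 libraries. At 3 months it had 0, 0, 2 and 3 reads in GFP+ libraries and 1, 9, 0 and 2 in GFP− libraries. At 6 months it had 3, 0, 6 and 0 reads in GFP+ and 2, 0, 18 and 5 in GFP− libraries, and at 9 months 21, 6 and 0 in GFP+ and 0, 6 and 2 in GFP− libraries. The fractions overlapped at each age. The pooled ratio of GFP+ to GFP− cells was 0.752 (95% interval 0.207 to 2.29) in the youngest mice. In the 6-month libraries it was 0.362 (interval 0.149 to 0.801), and in the 9-month libraries 2.82 (interval 1.25 to 7.19) with all of them and 0.786 (0.225 to 2.58) without GFP+ library 1. These ages went opposite ways, so their mean nets them against each other, and an exact 2-sided permutation test within ages gave p = 0.746 for a mean difference of 24.9 CPM (98000 regroupings, adjusted p = 0.91 over 2 tests). The highest level, 323 CPM, was in GFP+ replicate 1 at 9 months. In that library basal, myoepithelial and squamous genes summed to 12486 CPM and airway genes to 3240.6 CPM. The medians over the 22 thyroid libraries were 89.3 and 320 CPM. Of the 11 airway genes 9 had no read in thyroid GFP+ cells at 9 months, so the airway sum came from Cyp2f2 and Tppp3 alone. The part of these genes in the Aqp5 level was not tested.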

How the data were processed

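The authors deposited gene counts, 1 table per library, with 47643 gene rows and 5 summary rows. Library sizes and tests left the summary rows out: reads in no feature were 13.3 to 85.8% of all reads per library, and ambiguous ones up to 0.426%. Per the labels' protocols, RNA of sorted cells came from a column kit with DNase treatment and was sequenced with a 3′ mRNA kit. Per the submitters' processing notes, bcl2fastq and build mm9 were used. The aligner, counting program and strand setting are not given in the sources used here. Identifiers were matched to GENCODE vM21 symbols (47224 matched, 419 not). Among 36 within-group pairs 0 were identical, and the lowest chi-square per degree of freedom was 2.435.

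CPM used gene rows without TMM, and the limit for 0 reads was 3 reads. All genes were tested with edgeR 4.0.16 (R 4.3.3), TMM factors of 0.232 to 10.7, filterByExpr (minimum 10, total 15), a robust quasi-likelihood fit and the Benjamini-Hochberg threshold of 0.05. The 12 libraries at 9 months entered 1 fit (974 genes, biological coefficient of variation 0.48) and the 22 thyroid libraries another (1900 genes, 0.466). The contrasts of a fit share libraries. Ratios of pooled reads have exact binomial intervals and shares have Wilson intervals, at 95% (SciPy 1.17.1). Start regions are from RefSeq (GRCm38.p6) and transcripts from GENCODE vM21, aligned with Biopython 1.88, and no coordinate was compared with mm9.

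The alternatives tried were DESeq2 1.42.0, edgeR with DESeq2 size factors, no filter, a filter of at least 20 reads in 50% of libraries, a joint fit of all 28 libraries, a fit to the compared groups alone, a block for replicate numbers, each library left out, and fits without libraries under 10000 reads or without ribosomal RNA rows. A fit without replicate 4 of both thyroid fractions at 3 months, and ratios of pooled reads with each library left out, were added after the data were seen. Scripts were tested on simulated data. The members and lists were chosen with earlier results of these data known. All 10 members are named. From other lists up to 4 called genes are named by adjusted p, or the 2 most abundant if none was called. Bpifa2, Scgb1b27, Klk1, Lyz2, Ltf, Scgb3a1 and Bpifa1 beside the members, and the grouping around Smgc and Mucl2, were chosen after their values were seen.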

Additional observations from a re-analysis of the deposited data

Results flagged for a closer look

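Replicate 4 at 3 months stood far above the other 3 libraries of its thyroid group in 4 of 13 sets checked with Dixon's test. A set was a gene or a sum of genes in 1 group of 4 libraries, with at least 10 reads. The test's usual rate of about 1 in 20 by chance cannot be applied to such sparse counts. A gene with reads in only 1 of the 4 libraries is always flagged, as Dcpp1 in GFP+ and Dcpp2 in GFP− cells were. Dcpp1 in GFP− cells passed the test's limit only narrowly. Dcpp1 was at 166 CPM in the GFP+ library, and at 128 CPM in the GFP− library. Dcpp2 was at 141 CPM in the GFP− library. Dcpp1, Dcpp2 and Dcpp3 together were at 1013 CPM in the GFP− library. The 4 results share libraries and near-identical transcripts and are not independent.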

How the results depend on the processing

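The salivary libraries are few and unequal, so the number of members called depends on which libraries and genes enter. Leaving out 1 library at a time gave 0 to 3 members called between salivary fractions, 5 to 6 in salivary against thyroid GFP+ cells, 6 to 8 in GFP− cells, 0 to 1 between thyroid fractions at 3 months and 0 to 3 over ages in thyroid GFP+ cells. The stricter filter tested no member and gave 0 calls in each salivary against thyroid comparison and over ages in thyroid GFP+ cells. With only the groups compared, 1 of the 6 passed the filter and was called in salivary against thyroid GFP+ cells, and 0 over ages in thyroid GFP+ cells. Over ages in those cells 3 members were called with no filter, 2 with all 28 libraries, 0 without ribosomal RNA rows, 0 with DESeq2 and 0 without replicate 4 of both fractions.

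The labels do not say whether replicate numbers pair the fractions. Of same-numbered libraries 2 of 3 salivary and 3 of 11 thyroid pairs correlated above 0.1 (0.083 to 0.187 and −0.089 to 0.352), so the numbers were not taken as pairs, and pairing is not shown to be absent. With the number as a block, 0 members were called over ages in thyroid GFP+ cells, and no other count of members changed. Over all genes, calls between salivary fractions numbered 0, against 6 with all 28 libraries, 4 without ribosomal RNA rows, 2 without libraries under 10000 reads and 0 to 18 with a library left out. Of all genes in salivary against thyroid GFP+ cells 140 were called, against 31 with no filter, 21 with the stricter one, 286 with all 28 libraries and 31 to 177 with a library left out (31 without salivary GFP+ replicate 3, 73 without replicate 2, 74 and 86 without thyroid GFP+ replicates 2 and 3 at 9 months). In GFP− cells 138 were called, against 50 with no filter, 21 with the stricter one, 71 with the block, 208 without libraries under 10000 reads and 32 to 203 with a library left out (32 without salivary GFP− replicate 3, 82 without replicate 2, 64 and 57 without thyroid GFP− replicates 2 and 3 at 9 months). Between thyroid fractions at 3 months 185 were called, against 22 with no filter, 49 with the stricter one, 48 with only those groups, 115 with DESeq2 and 90 without replicate 4 of both fractions. Over ages 30 were called in thyroid GFP+ cells, against 8 to 56 over the alternatives that moved it, and 29 in GFP− cells, against 1 to 96. The median over all genes between salivary fractions moved from −0.89 to −0.65 without libraries under 10000 reads and to −0.67 without ribosomal RNA rows. No member fold change given by the main fits reversed direction in any alternative run. Ratios of pooled Aqp5 reads between thyroid fractions did reverse with a library left out. They went from 0.752 up to 2.32 at 3 months and from 2.82 down to 0.786 at 9 months. The Mucl2 log2 fold change between thyroid fractions at 9 months, fitted in alternatives only, ran from −1.23 to 2.47. Where a call changed for a reason other than the genes or libraries entered, the cause was not tested.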

Other observations

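Ltf, the iron-binding lactoferrin and another secreted product of glands, was higher in thyroid GFP+ than GFP− cells at 3 months (log2 fold change 2.65, edgeR adjusted p = 0.0363, among 5% of 1900 genes called higher) and as a mean of the 3 ages (1.91, adjusted p = 0.018, among 11.4%). At 6 months the log2 fold change was 0.29 (adjusted p = 0.961) and at 9 months 2.79 (adjusted p = 0.16). At 3 months all 62 GFP+ reads of Ltf were in replicate 4, whose airway genes stood at 1800 CPM. At 9 months 31 of the GFP+ reads were in replicate 1, whose airway genes stood at 3240.6 CPM. Of the 11 airway genes 4 had no read in thyroid GFP+ cells at 3 months. At 9 months 9 had none, and the airway sum came from Cyp2f2 and Tppp3 alone. The part of airway epithelium in the Ltf reads was not tested. Ltf had 1 read in the 6 salivary libraries. Over the 22 libraries of at least 10000 reads from both glands, the genes whose CPM ranked most like the summed CPM of the 10 acinar genes were Ehf, an epithelial transcription factor (Spearman's rho 0.763), the kallikrein Klk1b9 (0.753), Wfdc12 (0.733) and Crisp3 (0.728), of 4304 genes. Over the 17 such thyroid libraries they were Actb (0.789), Tmem258 (0.757) and Ndufb2 (0.738), of 4080 genes. Without replicate 4 at 3 months, over 15 thyroid libraries, they were Gatad1 (0.921), Atxn7l3b (0.889) and Gtf3c6 (0.864), so the leading genes rest on those libraries. These are descriptions across libraries that share gland and depth.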
